A study of Mus musculus with 9 samples.

Results

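I4 is one of the 8 clusters of cholinergic interneurons (I1 to I8) that the authors' annotation separates among nuclei sorted from the adult mouse spinal cord. Its members are the nuclei that carry the name I4 in that annotation. They number 702 of the 5375 interneuron nuclei (13.1%), of the 16042 cholinergic nuclei (4.38%) and of the 34231 annotated nuclei. The clusters were drawn from the expression values themselves, so differences in expression between I4 and other clusters are descriptions here and carry no test. Region and pool are no part of the rule and could be tested.

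All mice were of the strain Chat-IRES-Cre::Sun1-sfGFP with the genotype Chat-iCre:+/wt; SUN-SfGFP:+/wt and were 8 weeks old, and the labels name no treatment. *Chat* drives the Cre, which switches on a GFP-tagged protein of the nuclear envelope for good, so a nucleus can carry GFP from earlier *Chat* expression. The 12 mice, 6 male and 6 female, made 3 pools of 4: replicate 1 mixed 2 males with 2 females, replicate 2 held males and replicate 3 females. Each pool was dissected into cervical, thoracic and lumbar/sacral cord, from which GFP+/DRAQ5+ nuclei were sorted and sequenced on the 10X Genomics platform. This gave 9 libraries, 3 to a region. Libraries with the same replicate number come from the same mice, and sex cannot be told apart from the pool.

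Acetylcholine is made by choline acetyltransferase (*Chat*), and the choline for it is taken up by the transporter *Slc5a7*. Besides motor neurons (MNs), which send it to muscle and to autonomic ganglia, the cord holds cholinergic interneurons whose axons stay in the central nervous system. The best known are the partition cells beside the central canal, which supply the large C bouton synapses on MNs. *Pax2* is a transcription factor of dorsal and ventral inhibitory interneurons, and some cholinergic interneurons also carry the machinery for GABA, glycine or nitric oxide.

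I4 nuclei carried the marker named for them. *Pax2* (GRCm38, chromosome 19, 44756045 to 44837871) was found, with 1 corrected count or more, in 81.3% ± 10.2 of I4 nuclei (SD, n = 9 libraries), with a lowest library of 70.6% and a highest of 96.0%. In skeletal MNs, which should lack it, the pooled share was 3.84% at a median total of 7393 corrected counts, against 77.4% pooled in I4 at a median total of 6037. *Pax2* was not particular to I4, since pooled shares were 77.2% in I1, 67.8% in I2, 75.1% in I3 and 91.2% in I7, and it was scarce in I8, at 4.26%. The skeletal MN marker *Tns1* was found in 1.71% of I4 nuclei and 91.4% of skeletal MN nuclei, *Isl1* in 0.285% and 32.8%, and *Mnx1* in 0 of 702 and 7.52%.

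Values are the authors' corrected counts, summed over the nuclei of a cluster in a library and scaled to a total of 1000000, here called CPM. The correction brings nuclei of a library to a like total, so corrected totals differ more between libraries than between nuclei of a library. They do not show how deeply a nucleus was sequenced. The median total of an I4 nucleus ran from 4234 corrected counts in lumbar/sacral replicate 1 to 16061 in cervical replicate 2, and the summed total of I4 from 393932 to 832117 a library. CPM of different genes are not compared with each other, because they are not scaled by length. Scrublet called 4 of the 702 I4 nuclei (0.570%) as doublets, against 1.02% of all cholinergic nuclei, and no barcode sequence was shared between I4 nuclei of different libraries.

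The *Hox* levels of 2 libraries went against their labels. *Hoxa9*, a homeobox gene of thoracic and more caudal levels (chromosome 6, 52223100 to 52231089), was at 2.23 and 0 CPM in I4 of cervical replicates 1 and 3 but at 50.8 CPM in the library labelled cervical replicate 2, where 52.0% of I4 nuclei had a count. It was at 30.8 and 48.4 CPM in thoracic replicates 1 and 3 but at 2.04 CPM in the library labelled thoracic replicate 2, and at 27.6, 38.8 and 30.8 CPM in the lumbar/sacral libraries. *Hoxc5* showed the same order, at 0, 17.8 and 0 CPM in cervical, 28.9, 6.12 and 25.3 CPM in thoracic and 72.1, 62.7 and 80.8 CPM in lumbar/sacral replicates 1 to 3. Over all cholinergic nuclei, *Hoxa9* was found in 11.0% of the library labelled cervical replicate 2 and in 0.283% and 0.141% of the other cervical libraries, and in 0.459% of the library labelled thoracic replicate 2 and 9.10% and 6.44% of the other thoracic ones. The labels were kept, no library was moved, and regional results are also given without both libraries. Lumbar/sacral libraries are not touched by this.

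The share of I4 among interneurons was highest in lumbar/sacral libraries in 2 of the 3 pools. It was 9.10, 15.5 and 10.6% in cervical replicates 1 to 3, 12.2, 8.55 and 13.0% in thoracic and 17.5, 14.2 and 15.1% in lumbar/sacral ones. Lumbar/sacral and other libraries overlapped only through the one labelled cervical replicate 2, which held 25 I4 nuclei among 161 interneurons and whose 95% Wilson interval ran from 10.7 to 21.9%. Means were 11.7% ± 3.36, 11.2% ± 2.37 and 15.6% ± 1.69 (SD, n = 3 each). Lumbar/sacral libraries exceeded the others by 4.13 percentage points, which did not pass the exact permutation test over 84 groupings (p = 0.0595, two-sided), nor did the exact test over 3 regions and 1680 assignments (p = 0.168). Without the library labelled cervical replicate 2 the difference was 4.93 points (exact p = 0.0357), and without both doubted libraries it was 4.40 points (exact p = 0.0286, the smallest that 35 groupings allow). With the replicate as a block, permuting regions within each pool, the exact p was 0.111 over 27 assignments.

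Against all cholinergic nuclei, lumbar/sacral libraries did not overlap with the others. I4 made up 2.48, 3.35 and 3.45% of cholinergic nuclei in cervical replicates 1 to 3, 3.25, 3.21 and 3.37% in thoracic and 7.46, 5.77 and 5.72% in lumbar/sacral ones. The lumbar/sacral mean of 6.32% ± 0.992 exceeded that of the other 6 libraries, 3.19%, by 3.13 points (exact permutation p = 0.0119, the smallest of 84 groupings). The exact test over 3 regions gave p = 0.0321, which did not hold with the replicate block (exact p = 0.111) or without both doubted libraries (exact p = 0.0857). The difference of lumbar/sacral from other libraries was 3.18 points without both doubted libraries (exact p = 0.0286, the smallest possible) and had an exact p of 0.0370, again the smallest possible, with the replicate block. This denominator includes visceral and skeletal MNs, and more I4 nuclei cannot be told apart from fewer nuclei of the other classes in a sort. The male and female pools held 12.8 and 12.9% of I4 among interneurons, a mean difference within regions of -0.146 points ± 4.73 (SD, n = 3 regions; exact p = 1 of 8 assignments, where the smallest possible p is 0.25). Male minus female was 4.92 points in cervical, -4.45 points in thoracic and -0.908 points in lumbar/sacral cord, and the first 2 of these rest on the doubted libraries.

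**Figure D1:**
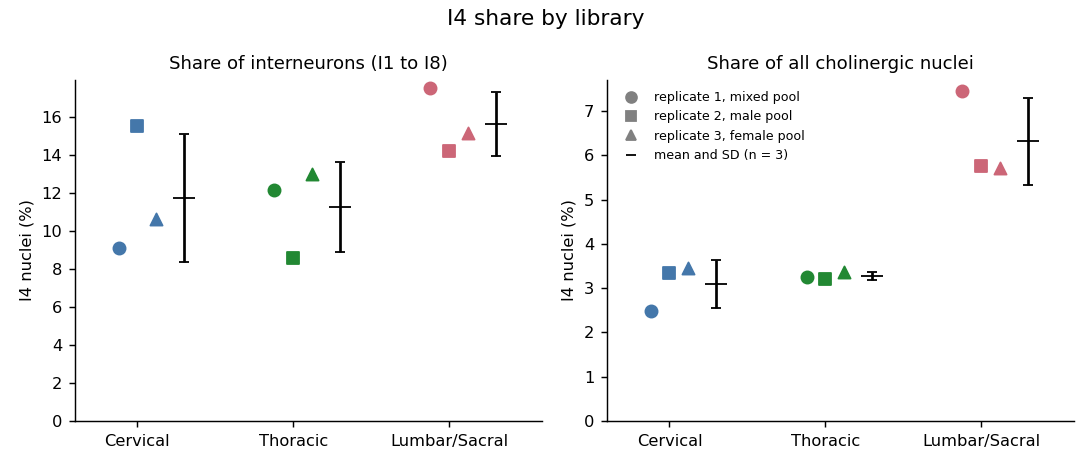
Share of I4 nuclei in each library, as a percentage of interneurons (left) and of all cholinergic nuclei (right), by labelled region. Points are libraries, with the shape giving the replicate, and bars are the mean and SD of 3 libraries. The lumbar/sacral points lie between 14.2 and 17.5% on the left and between 5.72 and 7.46% on the right, where no other library passes 3.45%.

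I4 nuclei carried acetylcholine genes together with genes for GABA and glycine. *Chat* (chromosome 14, 32408203 to 32465989) was at 118 to 179.7 CPM over the libraries with a median of 133 CPM, and its log2 difference from the mean of the other I clusters was 0.08 ± 0.31 (SD, n = 9 libraries). That mean takes in clusters on both sides, since means of *Chat* were 172 CPM in I3, 194 CPM in I1, 377 CPM in I5 and 53.0 CPM in I2. *Slc5a7* was at 132 to 233 CPM in I4 with a mean of 182 CPM, against 10.0 CPM in I8 and 409 CPM in I6. A corrected count of either gene was present in 541 of the 702 nuclei (77.1%). Every cluster here was sorted by *Chat*-driven GFP, so no class that lacks *Chat* was at hand to give its background.

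*Gad2*, which makes GABA at synapses (chromosome 2, 22622205 to 22693874), was at 152 to 218 CPM with a median of 192 CPM. It was at 201 CPM in I3 and 232 CPM in I2 but at 6.53 CPM in I5, 6.82 CPM in I6 and 6.73 CPM in I8. *Slc6a5*, the glycine transporter of glycinergic terminals (chromosome 7, 49910146 to 49963856), was at 90.1 to 151 CPM in I4. Its mean of 119 CPM was close to the 122 CPM of I3 and well under the 874 CPM of I8. The pooled share of nuclei with *Gad2* was 66.1% in I4 and 6.73% in skeletal MNs, and that of *Slc6a5* was 49.7 and 3.56%. Among I4 nuclei, 443 (63.1%) had both an acetylcholine gene (*Chat* or *Slc5a7*) and *Gad1* or *Gad2*, and 248 (35.3%) had *Slc6a5* as well. The last share ran from 13.5 to 88.0% over libraries of unequal depth, and the part of depth in it was not tested.

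By list, each member was counted as higher or lower in I4 where the mean log2 difference from the other I clusters reached 1 and had 1 sign in every library. Over all genes this held for 235 of 12967 as higher (1.81%) and 234 as lower (1.8%), with a median difference of 0.01, and since the clusters were drawn from these genes nothing is read from the counts beside them. Of 8 tested genes of GABA and glycine transmission, 3 were counted as higher, *Gad2* by 2.07 ± 0.23, *Gad1* by 1.63 ± 0.22 and *Slc6a5* by 1.46 ± 0.58, and the list's median was 0.70. None was lower. Of 5 acetylcholine genes none was counted as higher and *Prima1*, the membrane anchor of acetylcholinesterase, was counted as lower (-1.79), at 17.3 CPM against 522 CPM in I5 and 235 CPM in I6. The vesicular glutamate transporter *Slc17a6* had a count in 5.41% of I4 and 5.05% of skeletal MN nuclei, and *Slc17a8* was at 0 in 8 of 9 libraries. The share for *Slc17a6* ran from 1.25% in I7 to 27.0% in I6 over the other I clusters, and what these counts stem from was not tested. *Slc18a3*, the vesicular acetylcholine transporter, was not analysed here.

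The nitric oxide gene *Nos1* was at a higher level in I4 than in I5 and I6. *Nos1*, the neuronal nitric oxide synthase (chromosome 5, 117781032 to 117958840), was at 446 to 651 CPM with a median of 495 CPM. Its cluster means were 923 CPM in I1 and 716 CPM in I3 but 8.01 CPM in I5 and 14.1 CPM in I6, and its pooled share of nuclei was 83.0% in I4 and 5.26% in skeletal MNs. It was the only one of 10 tested genes of nitric oxide and cGMP signalling counted as higher, by 1.99 ± 0.33, none was lower, and the list's median was 0.01. *Prkg1*, the cGMP-dependent kinase, was at 495 to 993 CPM with a difference of 0.96, higher in 8 of 9 libraries. Of 17 phosphodiesterases, which break down cyclic AMP and cyclic GMP, 4 were counted as higher and 3 as lower. *Pde1a* was higher by 2.23 and *Pde7b* by 1.32, *Pde5a* was lower (-1.62) with a mean of 0.523 CPM, and *Pde11a* is described with the genes that define the cluster. *Pde10a*, at 1229 CPM, differed by 0.98 and reached 1834 CPM in I3, and *Pde4d*, at 1082 CPM, differed by -0.32 and was lower in 9 of 9 libraries. Among 9 adenylyl cyclases, which make cyclic AMP, *Adcy7* was higher by 1.21 and *Adcy2* lower (-1.66), whereas *Adcy8* and *Adcy9* were at 359 and 176 CPM with differences of 0.81 and 0.32.

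The 12 genes highest in I4 against the other I clusters included regulators of transcription. *Zfp536*, a zinc finger repressor (chromosome 7, 37472135 to 37773641), was at 489 to 608 CPM with a median of 532 CPM. Its log2 difference was 3.91 ± 0.38 (SD, n = 9 libraries), with means of 291 CPM in I3 and 296 CPM in I2 and at most 14.7 CPM in the other I clusters. *Ebf2*, a helix-loop-helix factor, was at 585 to 899.7 CPM (3.1 ± 0.36), and *Dach1*, a nuclear cofactor, at 989 to 1596 CPM (3.06 ± 0.51). Both were as high in I3, at 801 and 1201 CPM. *Prox1*, a homeobox factor (chromosome 1, 190118035 to 190170714), was at 21.2 to 78.4 CPM with a median of 38.5 CPM and a difference of 2.76 ± 0.53. It was near 0 in I1, I2, I5, I6 and I7, at 3.02 CPM in I3 and at 21.2 CPM in I8. *Zfp521*, a zinc finger protein that binds early B-cell factors, was at 294 to 432 CPM (2.66 ± 0.42) and was higher still in I8, at 455 CPM.

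The rest of the 12 highest were 3 receptors, a phosphodiesterase, a kinase, a calcium channel and a collagen. *Npsr1*, the neuropeptide S receptor (chromosome 9, 24097996 to 24316398), was at 127 to 347 CPM with a median of 269 CPM and a difference of 3.62 ± 0.64. It was at 221 CPM in I3 and 233 CPM in I5 and at no more than 6.02 CPM in the other I clusters. *Hcrtr2*, an orexin receptor, was at 164 to 235 CPM (2.81 ± 0.31), with 171 CPM in I3 and 100.2 CPM in I8. *Gfra1*, the GDNF co-receptor, was at 277 to 423 CPM (2.91 ± 0.55), with 191 CPM in I3 and 170.1 CPM in I2. *Pde11a*, a phosphodiesterase for both cyclic nucleotides (chromosome 2, 75989141 to 76338774), was at 442 to 713 CPM (2.91 ± 0.41), yet I8 exceeded it with 1303 CPM, and I3 had 133 CPM. *Col18a1*, the collagen that gives rise to endostatin (chromosome 10, 77052178 to 77166548), was at 112 to 217 CPM (2.91 ± 0.40) and was higher in I3, at 308 CPM. *Ryr3*, an intracellular calcium release channel, was at 549 to 961 CPM (3.0 ± 0.55), and *Dgkg*, a diacylglycerol kinase, at 306 to 556 CPM (2.77 ± 0.49).

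*Zfp536*, *Pde11a* and *Col18a1* are also the markers drawn for I4 by the study, which chose them on these nuclei. They had a count in 90.7, 82.6 and 57.5% of I4 nuclei pooled and in 57.3, 8.75 and 1.92% of skeletal MN nuclei, so *Zfp536* is not confined to interneurons. *Zfp536* and *Pde11a* were found together in 537 nuclei (76.5%), all 3 in 331 (47.2%) and none of them in 12 (1.71%).

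Few genes were held by I4 alone. Of the 235 genes counted as higher, I4 had the highest mean of all I clusters in 99, and in 12 it was more than 2 times every other mean. Chosen after their values were seen, for a mean of at least 20 CPM, these included *Hmcn1*, an extracellular matrix protein (chromosome 1, 150562524 to 150993435), at 48.2 CPM against at most 10.9 CPM elsewhere. *Msn*, which links membrane to actin, was at 24.5 CPM against 6.21 CPM, and *Col5a1*, a fibrillar collagen chain, at 29.5 CPM against 11.2 CPM. *Zmat4* was at 161 CPM against 53.1 CPM, *Nell2*, a secreted guidance protein, at 194 CPM against 93.8 CPM, and *Zfp804b* at 1439 CPM against 682 CPM. Of the same 235 genes, the I4 mean was no more than 2 times the I3 mean in 186, the I1 mean in 85 and the I2 mean in 83.

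The genes lowest in I4 were mostly as low in I3. *Dscaml1*, a cell adhesion molecule, was at 6.12 to 25.0 CPM in I4 (-3.49 ± 0.61) and at 6.92 CPM in I3, against 483 to 586 CPM in I1, I2, I5, I6 and I7. *Piezo2*, a mechanically gated channel, was at 0 to 16.8 CPM (-3.43 ± 0.77), with 3.61 CPM in I3 and 1515 CPM in I8. *Il1rapl2*, a synapse organiser, was at 9.62 to 61.3 CPM against 3871 CPM in I2. *Ldb2*, a cofactor of LIM homeodomain proteins, was at 2.30 to 16.9 CPM against 1148 CPM in I5, and *Col8a1* at 0 to 8.93 CPM against 403 CPM in I7. *Unc13c*, a priming factor of vesicle release, was at 4.61 to 67.3 CPM against 1327 CPM in I1, *Rgs6*, a brake on G protein signals, at 16.1 to 93.7 CPM against 2125 CPM in I1, and *Fam163a* at 0 to 12.7 CPM against 252 CPM in I5. Of the 234 genes counted as lower, the I3 mean was at most 2 times the I4 mean in 187, and I4 had the lowest mean of all I clusters in 66.

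**Figure D2:**
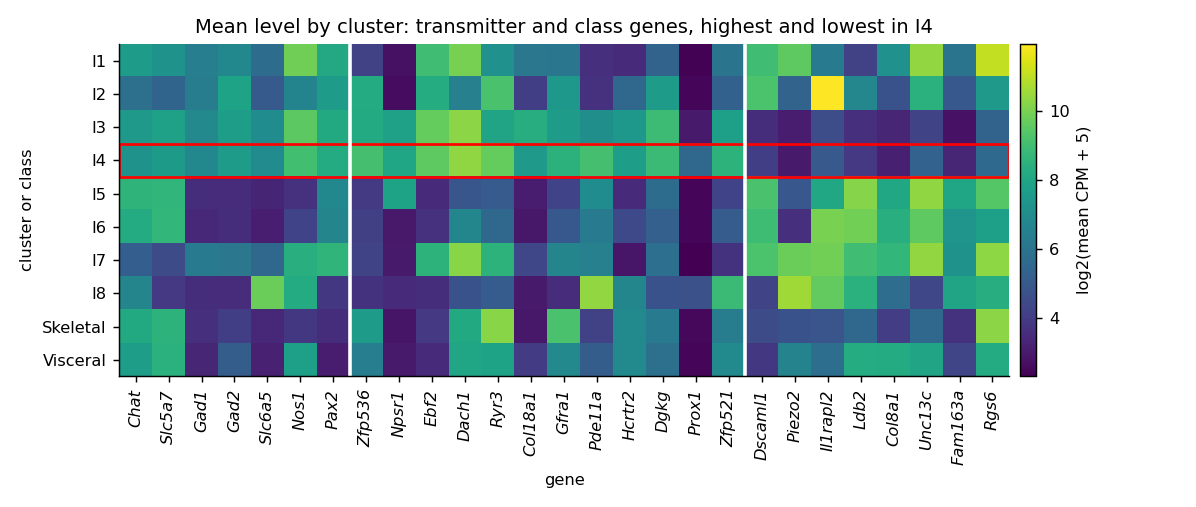
Mean CPM over libraries of each I cluster and of skeletal and visceral MNs, as log2 of CPM plus 5 in colour, for genes in columns. White lines part transmitter and class genes, the 12 genes highest and the 8 lowest in I4 against the other I clusters, and the red frame marks I4. The I3 row is the one closest to I4, and *Prox1* and *Pde11a* are columns where I4 and I3 part.

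Transcription factors of spinal interneurons divided in both directions. Of 40 tested, 10 were counted as higher and 13 as lower, with a median of -0.02. Beside *Zfp536* and *Ebf2*, *Rora*, a nuclear receptor, was higher by 1.17, at 1952 to 3585 CPM. *Pax8*, a close relative of *Pax2*, was higher by 2.14, at 149 CPM against at most 2.15 CPM in I5, I6 and I8. *Pbx3*, a TALE homeodomain protein, was lower (-2.55), at 35.5 to 106 CPM against 983 CPM in I1. Of 6 *Sox* genes none was counted in either direction, and *Sox6* and *Sox11* were at 82.8 and 30.4 CPM. Of 15 *Hox* genes none was counted either, with a median of 0.33, and *Hoxb3* and *Hoxb6* were at 75.9 and 48.0 CPM.

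Receptors for fast and slow transmitters differed by family. All 3 metabotropic glutamate receptors that were counted, of 7 tested, were lower in I4, and the list's median was -1.06. *Grm5* was at 59.9 to 406 CPM (-2.88 ± 0.68), against 4696 CPM in I1, 3738 CPM in I2 and 101 CPM in I3. *Grm8* was lower (-1.49), and *Grm7*, at 168 to 644 CPM, differed by -0.14. Of 18 ionotropic glutamate receptor subunits, *Grin3a* (1.13) and *Grin2b* (1.11) were counted as higher and *Grik1* (-2.27) and *Grin3b* (-1.24) as lower, and *Grik2* was at 2094 CPM. Of 19 GABA and glycine receptor subunits none was counted as higher and 1 as lower, and *Gabrb1* stood at 955 CPM. Acetylcholine receptors held 2 lower of 7, the muscarinic *Chrm3* (-2.09, at 17.2 CPM against 682 CPM in I5) and the nicotinic *Chrna7* (-1.62, at 21.5 CPM). *Chrm2*, the inhibitory muscarinic receptor, was at 385 to 757 CPM and differed by 0.33. Against I3 alone, 0 of 7 metabotropic glutamate and 0 of 5 acetylcholine receptors were counted in either direction. Of 17 ionotropic glutamate subunits 1 was higher, and of 17 GABA and glycine subunits 2 were higher and 3 lower. Over all genes 111 of 10533 were higher than in I3 (1.05%) and 66 lower (0.627%), and nothing is read from these counts.

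Serotonin receptors made up the 4 monoamine receptors counted as higher of 14. *Htr1b*, which couples to inhibitory G proteins, was higher by 1.81 at 6.70 to 50.8 CPM, and *Htr1f*, of the same class, by 1.43 at 87.7 to 154 CPM. *Htr4* and *Htr7*, which raise cyclic AMP, were higher by 1.70 and 1.58, at means of 98.9 and 149.7 CPM. *Htr2c* was at 437 CPM and differed by 0.52, and 1 monoamine receptor was counted as lower. Against I3 alone, 1 of 10 monoamine receptors was counted as higher and 0 as lower, with a median of -0.35. Most of this profile was therefore shared with I3. Among 17 neuropeptide genes, *Pnoc*, the nociceptin precursor, was higher by 1.87 at 28.3 CPM and the prohormone convertase *Pcsk1* by 1.51 at 142 CPM. *Cartpt* (-1.28, at 7.68 CPM against 396 CPM in I5) and *Penk* (-1.22, at 6.22 CPM) were lower. Of 23 peptide receptors, none was counted as higher and 3 were lower, *Tacr1*, the substance P receptor, at 9.34 CPM, *Galr1* at 0.483 CPM and *Npffr1* at 0.166 CPM, and the opioid receptors *Oprm1* and *Oprk1* were at 56.8 and 42.4 CPM. *Npsr1* and *Hcrtr2* were not on that list.

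Of 51 potassium channel genes, 7 were counted as higher and 4 as lower, with a median of 0.11. *Kcnn3*, a calcium-activated channel, was higher by 1.97 at 112 to 159 CPM, *Kcnq5*, an M current subunit, by 1.96 at 1491 to 2851 CPM, and the channel partner *Kcnip4* by 1.40, while *Kcnk9* (-2.16) and *Kcnh8* (-1.83) were lower. Of 31 sodium, calcium and HCN channel genes, the calcium channel subunits *Cacna2d2* (1.93) and *Cacna2d3* (1.44) were counted as higher and none as lower, and *Cacna1a* was at 675 to 837 CPM with a difference of -0.02. Trophic factor receptors held 5 higher of 15 and none lower, among them *Gfra1*, *Kit* (2.30, at 38.5 CPM), *Gfra2* (1.87) and *Erbb4* (1.85, at 1122 to 2199 CPM). Little of this set I4 apart from I3. Against I3 alone, 0 of 40 potassium channel genes and 0 of 26 sodium, calcium and HCN channel genes were counted in either direction. Of 14 trophic factor receptors, 1 was higher and 0 lower.

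Of 46 axon guidance genes 7 were higher and 9 lower. *Sema3a*, a repellent, was higher by 2.03 at 376 to 792 CPM, and the receptors *Unc5c* and *Robo1* were at 1788 and 1323 CPM with differences of 1.84 and 1.64. *Ephb1* (-2.36), *Epha6* (-2.10) and the ephrin *Efna5* (-2.16) were lower. Against I3 alone, 5 of 36 axon guidance genes were higher and 2 lower. Of 26 cadherins and protocadherins, *Pcdh9* (1.40, at 7970 to 13840 CPM) and *Cdh8* (1.15) were higher and *Cdh23* (-1.83) and *Cdh6* (-1.02) lower. Of 24 collagens, *Col18a1*, *Col19a1* (2.06, at 110 to 159 CPM) and *Col5a1* (1.87) were higher and 4 lower, with a median of -0.38. Of 10 calcium-binding genes, the pump *Atp2b4* (1.16) and *Necab1* (1.0) were higher, and *Slc8a1* and *Ncald* were at 611 and 215 CPM. No immediate early gene of 8 was counted, and the levels of *Nr4a1* and *Btg2* stayed at or under 32.6 CPM in every library.

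Genes of other cells were scarce in I4. Summed over the list, astrocyte markers reached 0 to 7.69 CPM in a library, with *Aqp4* at 0 in every one, and vascular markers 0 to 5.77 CPM, with *Rgs5* at 0. Oligodendrocyte precursor markers reached 1.92 to 16.9 CPM, the range of *Vcan* itself, with *Cspg4* at 0. Oligodendrocyte markers summed to 24.6 to 95.6 CPM, with *Mbp* at 17.3 to 34.7 CPM, and *Mbp* had a count in 15.1% of both I4 and I3 nuclei. Microglia markers summed to 7.70 to 122 CPM, most of it *P2ry12* (3.85 to 104 CPM), while *C1qb* and *Tmem119* were at 0 in every library. Skeletal MN markers summed to 1.92 to 22.3 CPM, and the visceral MN markers *Zeb2* and *Fbn2* were at 4.26 and 6.91 CPM. None of these lists but that of precursors (*Vcan*, lower (-1.19)) and visceral MNs (*Nos1*, described before) held a gene counted in either direction.

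I3 was the cluster most like I4. Over 12967 genes, the correlation of mean log2 levels with I4 was 0.981 for I3, followed by I2 at 0.942, I1 at 0.941, I6 at 0.919, I7 at 0.918, I5 at 0.890 and I8 at 0.866. These values describe clusters that share the same libraries, and genes are not replicates. Mean levels differed by at least 1 on the log2 scale in 203 genes (1.57%) for I3 and in 1509 (11.6%) for I8. Within single libraries, the correlation with I3 ran from 0.916 to 0.962.

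The difference between the pair was led by *Opcml*, a GPI-anchored adhesion molecule (chromosome 9, 27790775 to 28925410). It was at 1587 to 3089 CPM in I4 with a median of 2132 CPM and at a mean of 139 CPM in I3, a log2 difference of 3.96 ± 0.55 (SD, n = 9 libraries). By the same rule as before, 111 of 10533 genes were counted as higher in I4 than in I3 (1.05%) and 66 as lower (0.627%), and nothing is read from these counts. Next to *Opcml* were *Gm20754* (3.09), *Sorcs2*, a sorting receptor (2.94, at 85.4 against 7.54 CPM), *Man1a*, a mannosidase of the Golgi (2.81), *Hs3st4*, which sulfates heparan chains (2.73), and *Runx2*, a runt factor (2.72, at 96.9 against 12.3 CPM). *Plxdc2* (2.70, at 177 against 25.3 CPM) and *Tmem132c* (2.68) completed the 8 highest. *Prox1* was higher by 2.53 ± 0.52, *Pde11a* by 2.07 ± 0.44, *Tmem132d* by 2.10 and *Zfp536* by 0.90 ± 0.19, each in 9 of 9 libraries.

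Lower in I4 than in I3 was above all *Sox6*, an HMG box factor (chromosome 7, 115470872 to 116038796), at 12.7 to 168 CPM against a mean of 928 CPM, a difference of -3.61 ± 0.91. It had a count in 22.5% of I4 and 95.8% of I3 nuclei, and in 10.1% of skeletal MNs. The long RNA *9530026P05Rik* (-3.68, at 13.2 against 204 CPM), *Cadps2*, a factor of dense-core vesicle release (-2.91), *Vcan*, a matrix proteoglycan (-2.81), the glypican *Gpc3* (-2.58) and *Ntng1*, a netrin-G adhesion molecule (-2.54), were lower too. *Col18a1*, drawn for both clusters by the study, was lower in I4 in 9 of 9 libraries (-0.82 ± 0.27). Transmitter genes differed little, with differences of -0.26 for *Chat*, -0.08 for *Gad2*, 0.02 for *Slc6a5* and -0.47 for *Nos1*, the last lower in 9 of 9 libraries.

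**Figure D3:**
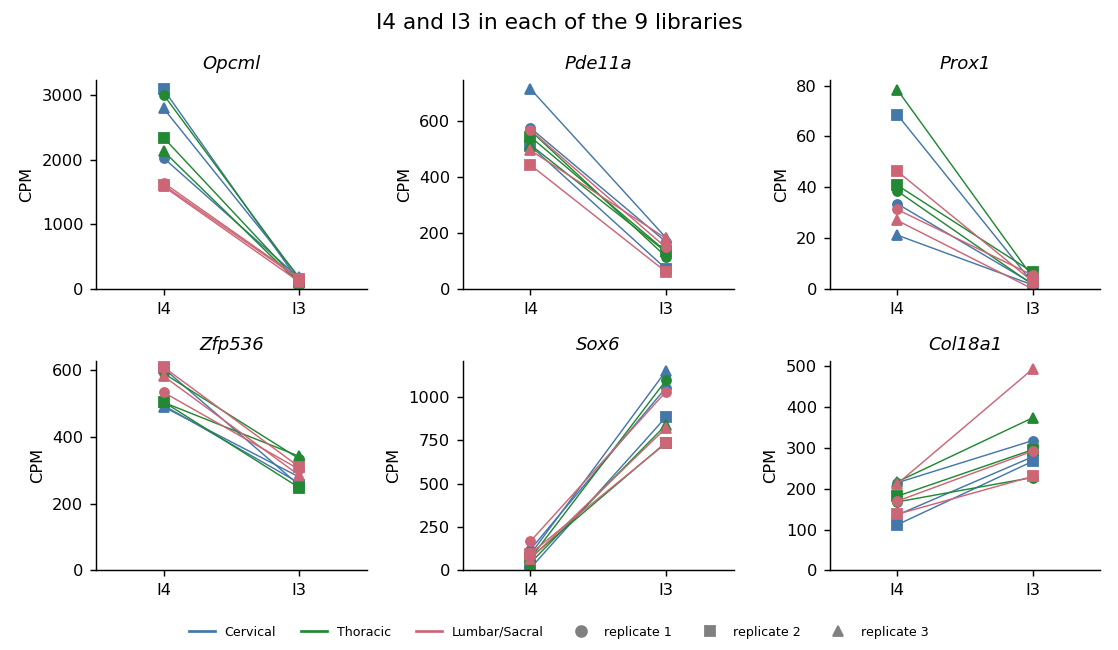
CPM of 6 genes in I4 and I3, joined within each of the 9 libraries, with colour for the labelled region and shape for the replicate. *Opcml*, *Pde11a*, *Prox1* and *Zfp536* lie higher in I4 in 9 of 9 libraries, and *Sox6* and *Col18a1* lie higher in I3 in 9 of 9.

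Along the cord, 4 genes passed in I4 between lumbar/sacral and the cervical and thoracic libraries. *Hoxd11*, 1 of them, came to be tested only through its lumbar/sacral levels. The contrast was tested with limma on log2 of CPM plus 5 and adjusted after Benjamini and Hochberg over 9807 genes, of which these 4 (0.0408%) passed and 263 had an unadjusted p under 0.05. *Plcl1*, a phospholipase-like protein that binds GABA receptor partners (chromosome 1, 55405921 to 55754285), was at 138, 246 and 254 CPM in cervical replicates 1 to 3, 162, 216 and 159 CPM in thoracic and 42.1, 38.8 and 36.5 CPM in lumbar/sacral ones. Every lumbar/sacral library lay under every other, and the log2 difference was -2.15 ± 0.21 (SE; limma, Benjamini-Hochberg adjusted p = 0.00214). *Tmem132d*, a transmembrane protein of neurons (chromosome 5, 127781630 to 128433077), was at 326, 277 and 442 CPM, 289, 343 and 297 CPM, and 157, 142 and 138 CPM in the same order. It did not overlap either, with a difference of -1.13 ± 0.16 (limma adjusted p = 0.0354).

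*Ebf1*, a relative of *Ebf2* (chromosome 11, 44617317 to 45008091), was higher in lumbar/sacral I4. It was at 241, 223 and 260.4 CPM in cervical, 216, 198 and 168 CPM in thoracic and 530.0, 499 and 508 CPM in lumbar/sacral replicates 1 to 3. The regions did not overlap, and the difference was 1.23 ± 0.14 (limma adjusted p = 0.00448). *Hoxd11*, a homeobox gene of lumbar and sacral levels (chromosome 2, 74679557 to 74687016), was at 0 in all 6 cervical and thoracic libraries and at 24.0, 35.8 and 19.2 CPM in lumbar/sacral ones (limma adjusted p = 0.0232). A gene needed 10 CPM in 3 libraries to be tested, and *Hoxd11* had it only on the side where it is high. That p therefore adds no support beyond the values. Its 54 corrected counts fell in 42 of 397 lumbar/sacral nuclei, and 0 of 305 nuclei elsewhere allow a share of up to 0.984%. Against a floor of 3 counts over those libraries together it was at least 24.6-fold higher, and its neighbour *Hoxd10*, with 13 counts, at least 5.91-fold.

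*Plcl1* passed in 18 of 18 settings and *Ebf1* in 15 of 18, lost with adjusted p of 0.0594 to 0.0703 without any one lumbar/sacral library. *Tmem132d* passed in 8 of 18 and *Hoxd11* in 8 of 15, since *Hoxd11* was not tested without any one lumbar/sacral library. Without cervical replicate 1 or 3, thoracic replicate 2 or 3, both genes had limma adjusted p of 0.0628 to 0.134, and without any one lumbar/sacral library *Tmem132d* had 0.208 to 0.560. Without both doubted libraries *Hoxd11* had 0.0660. After thinning every nucleus to 3500 corrected counts, *Plcl1* and *Ebf1* passed, and *Tmem132d* (adjusted p = 0.312) and *Hoxd11* (adjusted p = 0.127) did not. Without both doubted libraries 5 of 9165 genes passed (0.0546%), *Plcl1* (-2.02), *Ebf1* (1.21), *Tmem132d* (-1.17), *Hoxc5* (2.59) and *Npsr1* (-1.14).

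Libraries of one replicate come from the same mice, and the replicate as a block raised the number of genes that passed to 29 (0.296%), 14 higher (0.143%) and 15 lower (0.153%) in lumbar/sacral I4. *Npsr1*, one of the 12 genes highest in I4 against the other I clusters, was at 313, 269 and 328 CPM in cervical, 347, 210.0 and 306 CPM in thoracic and 169, 137 and 127 CPM in lumbar/sacral replicates, without overlap (-1.0 ± 0.14; limma with the block, adjusted p = 0.00610, against 0.153 without it). Its lumbar/sacral mean of 145 CPM in I4 was under those of I3 (161 CPM) and I5 (307 CPM). *Hoxc5* was higher by 2.49 (limma with the block, adjusted p = 0.0403). *Ephb1*, an ephrin receptor, was at 15.2 to 30.8 CPM outside and 54.1 to 80.6 CPM in lumbar/sacral libraries (1.43). *Crim1*, *Arhgap6*, *Fbxl7*, *Gabrg1*, *Lpcat2* and *Zim1* were lower in lumbar/sacral I4 with no overlap, and *March1*, *Stxbp6*, *Tshz2*, *Ntm*, *Cntnap5c* and *D930007P13Rik* higher with none. *Gabrg1* and *D930007P13Rik*, like *Hoxd11*, reached 10 CPM only on the side where they were higher. *Hdac9* (lower), *Meis1*, *Lhfpl3* and the long RNA *Rmst* (higher) also passed but overlapped between regions.

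A further 5 genes of the block were mitochondrial, *mt-Co1*, *mt-Co3*, *mt-Nd2*, *mt-Cytb* and *mt-Atp6*, all lower in lumbar/sacral I4. *mt-Co3* was at 188, 571 and 508 CPM in cervical, 121, 459 and 618 CPM in thoracic and 61.3, 181 and 298 CPM in lumbar/sacral replicates 1 to 3. Replicate 1 was the lowest of its region throughout, and the difference was -1.20 ± 0.16 with the block (limma adjusted p = 0.00440) and -1.20 ± 0.55 without it (adjusted p = 1.0). Its means in I3 were 687 CPM outside and 300.2 CPM in lumbar/sacral libraries and in I1 536 and 251 CPM, and the part of RNA quality in this was not tested.

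Over all 9807 genes, 166 (1.69%) had lumbar/sacral libraries that did not overlap with the other 6, 90 higher (0.918%) and 76 lower (0.775%). Of the lists, 13 *Hox* genes were tested, with a median difference of 0.28 beside 0.05 over all genes. The 1 that passed, *Hoxd11*, was tested only through its lumbar/sacral levels. Of 30 transcription factors of spinal interneurons 1 passed (*Ebf1*), 7 having an unadjusted p under 0.05. No other list held a gene that passed without the block. *Hoxa10*, not tested for its low level, was at 8.41, 25.4 and 5.77 CPM in lumbar/sacral libraries and at most 2.54 CPM elsewhere.

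**Figure D4:**
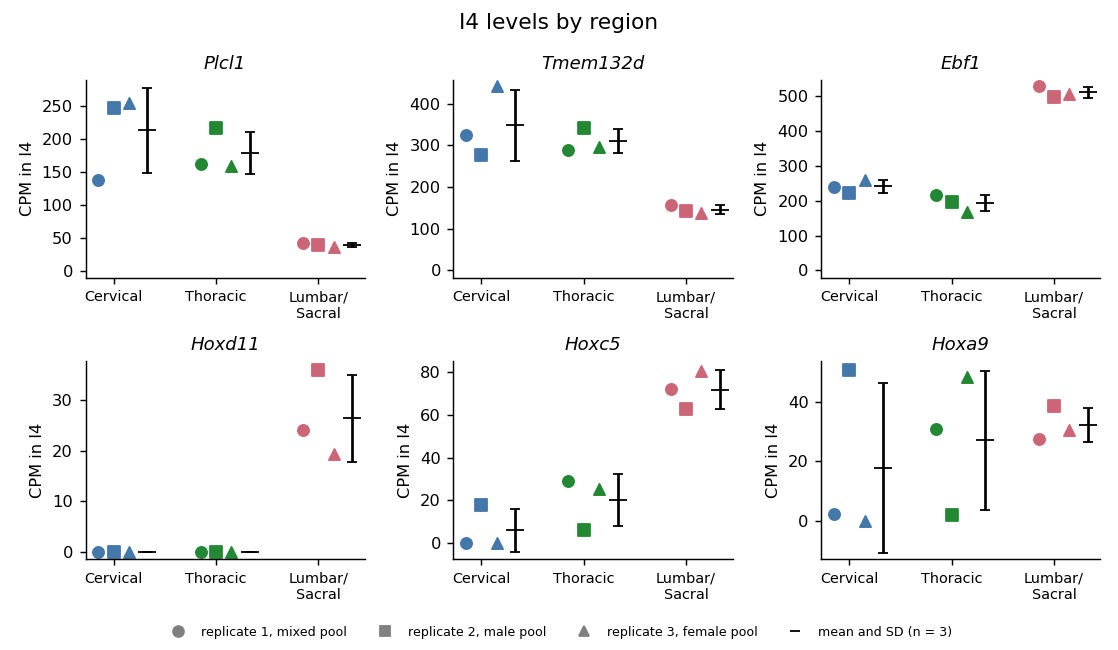
CPM of 6 genes in I4 by labelled region, with the shape giving the replicate and bars the mean and SD of 3 libraries. *Plcl1* and *Tmem132d* lie lower and *Ebf1*, *Hoxd11* and *Hoxc5* higher in the lumbar/sacral libraries without overlap, and *Hoxa9* shows the male-pool libraries labelled cervical (50.8 CPM) and thoracic (2.04 CPM) apart from the rest of their groups.

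Whether I4 differed along the cord more than its neighbours was tested on the difference of I4 from the mean of I1, I2, I3, I5 and I6 within each library. None of 12301 genes passed (limma, Benjamini-Hochberg), 743 having an unadjusted p under 0.05, and none passed with the replicate block (724 under 0.05) or without both doubted libraries (854). The estimate for *Plcl1* was -1.37 ± 0.32 (adjusted p = 0.519), for *Tmem132d* -1.02 ± 0.22 (adjusted p = 0.436) and for *Npsr1* -1.27 ± 0.33 (adjusted p = 0.651). On simulated data this comparison recovered 16% of 2-fold and 92% of 4-fold changes, against 70 and 98% for the regional comparison within I4. It can therefore miss differences of 2-fold. Side by side, *Plcl1* went from a mean of 196 CPM outside to 39.1 CPM in lumbar/sacral libraries in I4, from 58.5 to 7.64 CPM in I3, from 251 to 139.9 CPM in I1 and from 500.5 to 242 CPM in I2, but stood at 319 CPM on both sides in I6. *Ebf1* went from 218 to 512 CPM in I4, from 391 to 648 CPM in I3 and from 54.4 to 361 CPM in I2, and was at 3969 and 3793 CPM in I1. *Tmem132d* was at 329 and 146 CPM in I4, 342 and 347 CPM in I1, and 324 and 297 CPM in I2. *Hoxd11* was at 0 CPM outside lumbar/sacral libraries in each I cluster.

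Cervical and thoracic I4 were not told apart by the tests run, which with all libraries include both doubted ones. None of 9807 genes passed (limma, Benjamini-Hochberg), with 312 at an unadjusted p under 0.05. None passed with the replicate block (751 under 0.05), without both doubted libraries (671) or without the library labelled cervical replicate 2 (1173). The comparison without both doubted libraries rests on 2 libraries a region. In these, *Hoxa9* was at 2.23 and 0 CPM in cervical and 30.8 and 48.4 CPM in thoracic I4. *Hoxc5* was at 0 and 0 CPM and at 28.9 and 25.3 CPM. Both genes were picked after their values were seen.

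Between the male and female pools 6 of 9410 genes passed (0.0638%) in I4, with the region as a term, and 820 had an unadjusted p under 0.05. Sex-linked genes made up 5 of them, *Xist*, at 576, 703 and 679 CPM in the female libraries and 0, 0 and 1.49 CPM in the male ones, and *Uty*, *Eif2s3y*, *Kdm5d* and *Ddx3y*, at 0 in all 3 female libraries. These 5 also came to be tested only through the pool where they are high. *Slc38a2*, a glutamine transporter, was the other, at 340.2, 351 and 305 CPM in the male and 78.3, 143 and 96.2 CPM in the female libraries (1.64 ± 0.20; limma adjusted p = 0.0288). The mixed pool was at 51.3, 79.0 and 74.5 CPM, lower than the female one in each region, so the male libraries stood apart from both. With 1 pool of each sex, a pool and a sex cannot be told apart, and the p-values rest on the spread between regions of the same mice. In limma without lumbar/sacral replicate 2 or 3 *Slc38a2* had adjusted p of 0.988 and 0.971, and without thoracic replicate 2 it had 0.0837.

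Shares of nuclei with a count of 25 markers were compared between lumbar/sacral and the other libraries by exact permutation. As deposited, none had a Benjamini-Hochberg adjusted p under 0.05, and the lowest was 0.0744, *Pde11a*, *Col18a1* and *Slc5a7* being at it, all 3 lower in lumbar/sacral libraries. Thinned to 3500 corrected counts, at which all 702 I4 nuclei were kept, the differences of *Col18a1* and *Slc5a7* went from -17.2 and -15.8 points to -3.48 and 8.10 points, and that of *Pde11a* stayed at -15.1 points (66.2 against 81.3%; exact p = 0.0238, adjusted p = 0.595). The CPM of *Pde11a* did not pass (-0.18 ± 0.15; limma adjusted p = 1.0).

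I4 nuclei varied among themselves along *Nos1*. The first principal component of 7377 genes, centred within libraries, took 1.38% of the variance and ran from *Gpc5*, *Nos1*, *Trhde*, *Sema6d*, *Pde11a*, *Col18a1* and *Slc5a7* to *Opcml*, *Unc5d*, *Grm5*, *Hs6st3* and *Dab1*. Its scores had a correlation of 0.712 with the total of a nucleus relative to its library, which is a description over nuclei. A count of *Nos1* was missing in 119 of 702 nuclei (17.0%), from 5.36% in thoracic replicate 2 to 25.9% in lumbar/sacral replicate 1. *Col18a1* was found in 64.8% of nuclei with *Nos1* and 21.8% of those without, *Trhde* in 83.9 and 41.2%, *Slc5a7* in 66.9 and 26.9%, *Chat* in 59.5 and 29.4% and *Pde11a* in 88.3 and 54.6%. The other way round, *Grm5* was found in 38.3% with and 79.8% without *Nos1*, *Hs6st3* in 41.9 and 77.3%, *Inpp4b* in 32.6 and 67.2%, *Unc5d* in 59.0 and 82.4% and *Cntnap5c* in 13.9 and 35.3%. *Zfp536* was alike, at 91.6 and 86.6%.

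*Trhde*, *Col18a1*, *Slc5a7*, *Pde11a*, *Grm5*, *Hs6st3*, *Inpp4b*, *Unc5d* and *Opcml* are shown because they lie with *Nos1* at the ends of this component, so their split by *Nos1* restates it in shares and is no separate support for it. With every nucleus thinned to 3500 corrected counts, 504 nuclei had *Nos1* and 198 did not. *Col18a1* was then at 49.2 and 24.2%, *Chat* at 40.9 and 29.3% and *Trhde* at 71.4 and 42.4%, each higher with *Nos1* in 7 of the 7 libraries with enough nuclei of both kinds. *Grm5* was at 25.8 and 55.1%, *Hs6st3* at 31.3 and 57.6% and *Unc5d* at 47.0 and 72.7%, each lower with *Nos1* in 7 of 7. *Opcml*, in 83.7 and 93.4% of nuclei, was at 1562 CPM with and 3329 CPM without *Nos1*. *Gad2* (47.2 and 41.4%), *Slc6a5* (29.8 and 25.8%) and *Zfp536* (79.0 and 78.3%) differed little, with both signs among the 7 libraries. The share without *Nos1* after thinning was 16.1 to 36.0% a library. Thinning evens corrected totals and not how deeply a nucleus was sequenced, and the part of depth in this split was not tested.

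**Figure D5:**
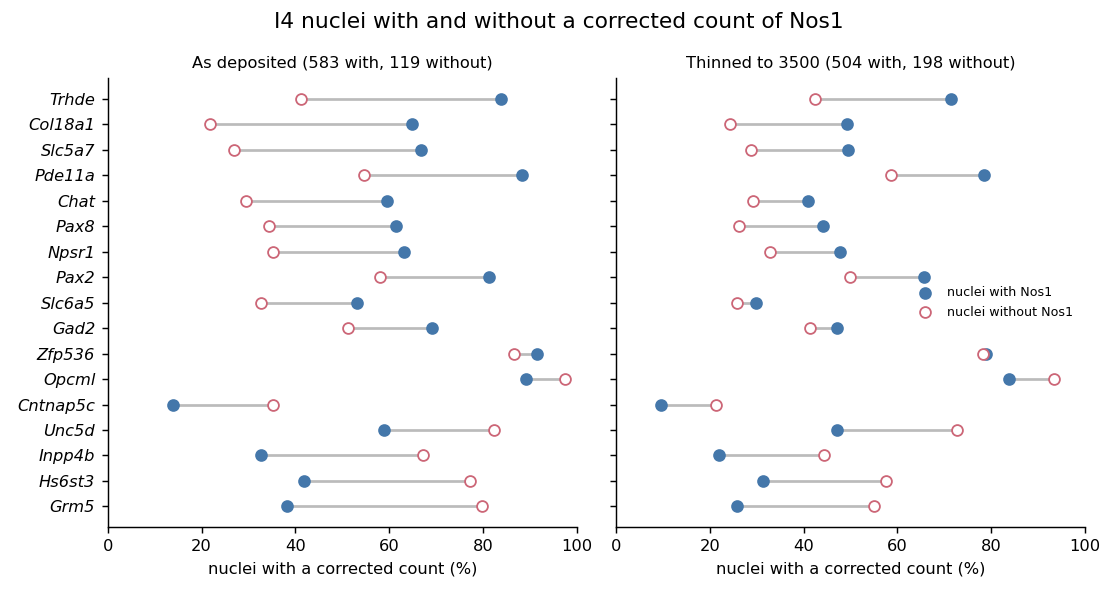
Percentage of I4 nuclei with a corrected count of each gene, among nuclei with (filled) and without (open) *Nos1*, as deposited on the left and thinned to 3500 corrected counts on the right. *Col18a1*, *Trhde* and *Slc5a7* lie higher with *Nos1* and *Grm5*, *Hs6st3* and *Inpp4b* lower on both sides, and the gaps of *Gad2* and *Slc6a5* are narrower on the right.

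A further axis followed the difference between I4 and I3. The third component, with 0.596% of the variance and a correlation of -0.202 with the relative total, ran from *Zfp804b*, *Kirrel3*, *Opcml*, *Pde11a*, *Sema3a*, *Tmem132d* and *Zfp536* to *Sox6*, *Dcc*, *Ptprt* and *Ntng1*. *Opcml*, *Pde11a*, *Kirrel3* and *Ntng1* are shown for their place on it, and their split by *Sox6* likewise restates it. The 158 I4 nuclei with *Sox6* (22.5%) had *Opcml* in 71.5%, against 96.1% of the 544 without, and *Opcml* stood at 552 and 2610 CPM in them. *Pde11a* was found in 70.3 and 86.2%, *Ntng1* in 30.4 and 12.3% and *Col18a1* in 75.3 and 52.4%. After thinning, *Opcml* was lower in the *Sox6*+ nuclei in 4 of the 4 libraries compared (62.4 against 91.7%) and *Kirrel3* too (84 against 99.1%), and *Ntng1* was at 26.4 against 7.28%, higher in 3 of 4. For *Opcml*, *Pde11a*, *Ntng1* and *Col18a1* these are the directions in which I3 differed from I4. Whether the *Sox6*+ nuclei lie on the border drawn between the 2 clusters was not tested.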

How the data were processed

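Nuclei were sorted and sequenced by the authors, and the submitters' processing notes name Cell Ranger 3.1.0, the build mm10 and Seurat. The deposited matrix holds a score rather than raw counts: the authors' SCTransform-corrected counts for 21457 genes in 16042 cholinergic nuclei. The paper states that barcoded regions were processed separately. Nuclei of a library have a like total, but median I4 totals differ within a region, at 6143, 16061 and 9414 in cervical replicates 1 to 3. The part of separate corrections in the comparisons between libraries was not tested. Cluster names come from the authors' deposited annotation. The members, gene lists and tests used here were chosen with earlier results of these data known.

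Corrected counts were summed over the I4 nuclei of each library, where a sum needed 10 nuclei, and scaled to CPM. Genes with at least 10 CPM in 3 sums were tested with limma 3.58.1 (R 4.3.3), with a mean-variance trend, on log2 of CPM plus 5, with the Benjamini-Hochberg adjustment and a threshold of 0.05. Lumbar/sacral was set against the mean of cervical and thoracic, cervical against thoracic, and the male against the female pool with region as a term. I4 was set against the mean of the other I clusters within each library, without a test. Each cluster weighed alike in that mean, whatever its number of nuclei. Shares were compared by exact permutation of libraries. The scripts were tested on simulated data. Intervals and limits for a count of 0 (3 counts) cover counting error only. Doublets were called with Scrublet in scanpy 1.11.5 and kept. Replicates are pools of 4 mice, so p-values between regions without the block measure the spread between pools. Those comparisons treat the 9 libraries as independent, though they come from 3 pools. With the replicate as a block that spread is taken out, and the p-values measure how far regional differences vary between pools. P-values between the male and female pools, 1 of each, measure the spread between regions of the same mice.

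Same-numbered libraries come from the same mice. Over genes, their deviations from the region means had correlations of 0.288 to 0.667 in 7 of 9 pairs, with -0.0379 and -0.118 in replicate 3 for cervical against lumbar/sacral and thoracic cord. Named genes were the 12 highest and 8 lowest against the other I clusters, the 8 highest and 6 lowest against I3, the genes that passed a test, and for each list its members counted and those of highest level. Alternatives were another pseudocount, no filter, scaling by median of ratios, thinning to 3500 corrected counts, leaving out doublets or single libraries, the replicate as a block, leaving out both doubted libraries and joining cervical and thoracic libraries as 1 group, the last 2 chosen after seeing the data. Gene positions are of GRCm38 in GENCODE vM21. Results for some genes are not reported here.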

Additional observations from a re-analysis of the deposited data

Results flagged for a closer look

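A single library stood far from the other 8 in 4 of the 37 sets of 9 values examined, by a gap to its neighbour of over 0.493 of the whole range, a limit that chance passes in about 1 of 20 sets. The log2 difference of *Col8a1* between I4 and the other I clusters was -1.91 in cervical replicate 3, against -3.69 to -2.82 in the other libraries. *Plxdc2* differed between I4 and I3 by 4.63 in the library labelled thoracic replicate 2, against 1.58 to 2.92 elsewhere, and *Sox6* by -5.65 in the library labelled cervical replicate 2, against -4.11 to -2.58. The median total of an I4 nucleus was 16061 corrected counts in the library labelled cervical replicate 2, against 4234 to 10198 in the others.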

How the results depend on the processing

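No difference that had passed a test was reversed under the alternatives run. Thinning turned the sign of several differences in shares of nuclei between regions, none of which had passed, among them *Slc5a7* (-15.8 to 8.10 points), *Pax2* (-12.9 to 3.47) and *Zfp536* (-5.42 to 3.29). Of 9807 genes in lumbar/sacral against cervical and thoracic I4, 2 passed with a pseudocount of 1 CPM, 2 after thinning, 29 with the replicate block and 1 to 5 with one library left out. Scaling by median of ratios gave 2 higher and 1 lower, in place of 2 and 2. *Plcl1* passed in all 18 settings, with limma adjusted p of 5.43e-05 to 0.0321. The block raised the genes called between lumbar/sacral and other I4 libraries from 4 to 29. It also ended the call over 3 regions on the share of all cholinergic nuclei (exact p = 0.0321, and 0.111 with it). Beyond these 2 it changed no call in the comparisons run, and the pool comparison has none, since region is its term. Between the pools, 3 genes passed with a pseudocount of 1 CPM, 12 with no filter and 0 to 426 with one library left out, where 373 and 426 (without cervical replicate 2 or 3) and 1, 1 and 0 (without thoracic replicate 2 or lumbar/sacral replicate 2 or 3) rest on 1 residual degree of freedom, and median of ratios gave 5 higher and 3 lower in place of 5 and 1. The regional difference between I4 and its neighbours gave 10 genes with a pseudocount of 20 CPM and 0 with one library left out, as did cervical against thoracic. Genes counted against the other I clusters were 130 and 115 with a pseudocount of 20 CPM, 112 higher and 412 lower against the sum of all other I nuclei, and 230 to 243 higher and 229 to 245 lower with one library left out. Against I3 they were 57 and 36 with a pseudocount of 20 CPM, and 110 to 119 and 66 to 72 with one library left out. The size of the differences printed for named genes depends on the reference. With the sum of all other I nuclei in its place, 59 of them moved by at least their SD over libraries and 17 did not. With a pseudocount of 20 CPM, 42 differences against the other I clusters or I3 moved that far. The lumbar/sacral excess of the share passed at 4.40 points without both doubted libraries (over 3 regions, exact p = 0.0381), and among cholinergic nuclei at 3.13 points, also with the block, and at 3.18 points without both. The test over 3 regions did not pass for that share with the block or without both (exact p = 0.0857). With one library left out, the excess of the share among interneurons was 3.19 to 4.93 points, and its exact p over 3 regions 0.0464 to 0.346. The causes were not tested. Shares of nuclei with a count are bounded by depth, and its part in the splits by *Nos1*, *Sox6* and *Chat* was not tested.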

Other observations

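I4 nuclei were also split by *Chat* itself. The 382 nuclei with a count of *Chat* had *Slc5a7* in 68.8%, against 49.7% of the 320 without, higher in 8 of the 8 libraries compared. After thinning to 3500 corrected counts the shares of *Slc5a7* were 49.2% and 40.2%, higher in 7 of 9 libraries, and those of *Gad2* were 45.5% and 45.7%. In 56 I4 nuclei (7.98%) an acetylcholine gene was found without *Gad1*, *Gad2* or *Slc6a5*, from 0 to 17.6% a library.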
